A study of Mus musculus with 24 samples.

Results

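The let-7 family is a group of microRNA genes whose mature products share a seed, the stretch near the 5′ end through which a microRNA pairs with its targets. The members were 10 mouse let-7 genes picked by symbol, namely Mirlet7a-1, Mirlet7a-2, Mirlet7b, Mirlet7c-1, Mirlet7c-2, Mirlet7d, Mirlet7e, Mirlet7f-1, Mirlet7g and Mirlet7i. They are 10 of 55335 genes in the deposited count table and 10 of 1180 genes with a microRNA symbol. Of the 10, 4 had at least 1 count in the 24 libraries and 6 had 0 counts in all of them.

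The libraries were made from small RNA sequencing of mouse embryonic stem cells (mESC) and of neural progenitor cells (NPC) differentiated from mESC, 12 libraries each. Each cell type had 6 Htt genotypes with 2 replicates: an Htt knockout (KO), Htt wild type (WT), and 4 lines heterozygous for a knock-in Htt allele, with the names Q20, Q50, Q92 and Q111 for the number of CAG repeats. The Q92 line is given as 89 repeats in the growth protocol, and there was 1 line for each length. The mESC were grown with LIF on irradiated mouse embryonic fibroblasts, so mESC RNA can hold feeder RNA, and the NPC were grown on laminin with FGF and EGF. Htt, the huntingtin gene, had 3 and 2 counts in KO mESC, 8 and 8 in WT mESC, 1 and 1 in KO NPC, and 9 and 2 in WT NPC. The sources used here do not say which part of the gene the knockout removes, so these few counts do not check the labels.

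Let-7 genes are transcribed as long precursors, cut by Drosha to a hairpin and by Dicer to the mature RNA, which guides Argonaute proteins to target messages. In embryonic stem cells the RNA-binding proteins Lin28a and Lin28b are known to block this maturation and, with uridylating enzymes, to mark the let-7 hairpin for decay. Mature let-7 is known to accumulate as cells differentiate, and its known targets include cell cycle and growth factor signalling genes and Lin28 itself.

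The mature 5p sequences show what the members have in common and how little separates them. The 10 genes give 8 distinct sequences of 22 bases, taken from RefSeq on GRCm38.p6 and printed 5′ to 3′ with the seed, bases 2 to 8, in capitals. RefSeq had a 5p entry for 9 of the 10, and for Mirlet7a-2 the let-7a-5p sequence was found in its hairpin.
let-7a-5p (Mirlet7a-1, Mirlet7a-2): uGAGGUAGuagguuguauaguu
let-7b-5p (Mirlet7b): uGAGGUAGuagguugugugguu
let-7c-5p (Mirlet7c-1, Mirlet7c-2): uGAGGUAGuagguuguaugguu
let-7d-5p (Mirlet7d): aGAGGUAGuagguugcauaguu
let-7e-5p (Mirlet7e): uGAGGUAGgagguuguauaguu
let-7f-5p (Mirlet7f-1): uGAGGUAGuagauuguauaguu
let-7g-5p (Mirlet7g): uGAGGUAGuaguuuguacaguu
let-7i-5p (Mirlet7i): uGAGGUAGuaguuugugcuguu
All 10 members carried the seed GAGGUAG. Relative to let-7c-5p, and counted from 1 at the 5′ end, let-7a differed by G19A and let-7b by A17G. The sequence of let-7e differed by U9G and G19A, that of let-7f by G12A and G19A, and that of let-7d by U1A, U16C and G19A. The sequence of let-7g differed by G12U, U18C and G19A, and that of let-7i, with the most substitutions, by G12U, A17G, U18C and G19U. A read with a single mismatch could therefore lie between members.

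The hairpins of the genes that carried the counts are shown next, with that of Mirlet7c-2, the other gene for let-7c-5p. Capitals mark both mature arms.
Mirlet7c-1: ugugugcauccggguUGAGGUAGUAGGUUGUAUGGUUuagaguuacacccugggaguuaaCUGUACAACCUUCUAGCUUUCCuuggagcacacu
Mirlet7c-2: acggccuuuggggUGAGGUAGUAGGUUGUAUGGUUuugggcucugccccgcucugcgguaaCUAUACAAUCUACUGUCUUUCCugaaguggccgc
Mirlet7e: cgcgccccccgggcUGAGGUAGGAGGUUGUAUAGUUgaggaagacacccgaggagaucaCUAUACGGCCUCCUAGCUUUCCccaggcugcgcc
The 5p arm of Mirlet7c-1 stands in the same letters in Mirlet7c-2 and in the noncoding gene Lncppara, which contains Mirlet7c-2. Over the hairpin, 2 of 73 stretches of 22 bases in Mirlet7c-1 occurred in another annotated gene, against 0 of 72 in Mirlet7e and 0 of 67 in Mirlet7g. A read of exactly let-7c-5p matches both genes equally, and how the authors' counting treated such reads is not given in the sources used here. The counts of Mirlet7c-1 are uncertain to that extent.

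Most members lie in small clusters, given here in GRCm38 coordinates. Mirlet7c-1 (chromosome 16, 77599657 to 77599750, plus strand) sits in an intron of the noncoding host gene Mir99ahg, 656 bases after Mir99a. Mirlet7e (chromosome 17, 17830352 to 17830444, plus strand) lies 94 bases after Mir99b, in an intron of the protein-coding gene Spaca6, and overlaps the microRNA gene Gm25927 on the opposite strand, which had 0 counts. Mirlet7g (chromosome 9, 106178840 to 106178927, plus strand) is in an intron of Wdr82. Mirlet7a-2 (chromosome 9, 41536716 to 41536811, plus strand) is in introns of the noncoding genes 3110039I08Rik and Gm49317, 5211 bases after Mir100.

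The other 6 members, all at 0, each lay wholly inside an exon of another annotated gene on the same strand. Mirlet7d (chromosome 13, 48536012 to 48536114), Mirlet7f-1 (48537829 to 48537917) and Mirlet7a-1 (48538179 to 48538272), all on the minus strand, lie in an exon of the noncoding RNA gene 6720427I07Rik. Mirlet7c-2 (chromosome 15, 85706603 to 85706697) and Mirlet7b (85707319 to 85707403), on the plus strand, lie in an exon of Lncppara. Mirlet7i (chromosome 10, 122985640 to 122985724, minus strand) lies in an exon of the transcribed pseudogene D630033A02Rik. The same held across the table: of 1180 microRNA genes, the 187 wholly inside a same-strand exon had a count in 0 cases. A count was present for 38 of 87 genes that overlapped such an exon in part (43.7%) and for 350 of 906 with no such overlap (38.6%). The genes around the 6 members took few counts themselves, with 10 for 6720427I07Rik, 2 for Lncppara and 10 for D630033A02Rik over all libraries. The rule by which the authors assigned reads on more than 1 gene is not given in the sources used here, and its part in these zeros was not tested. The 6 zeros therefore do not give a level for those members.

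**Figure D1:**
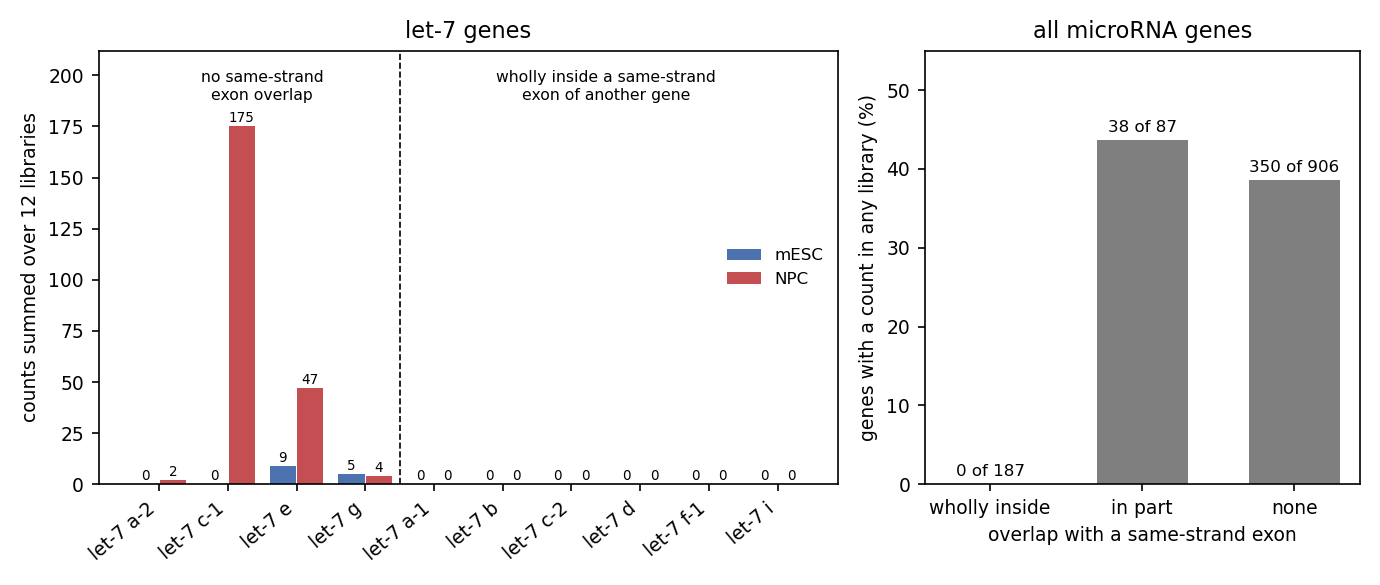
Left, counts of each let-7 gene summed over the 12 mESC (blue) and 12 NPC (red) libraries, split by whether the gene lies wholly inside a same-strand exon of another gene; right, percent of all microRNA genes with a count in any library by the same overlap. The 4 let-7 genes outside such exons held all 242 let-7 counts, and the 6 inside them held 0, as did all 187 microRNA genes of that kind.

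Depth limited every value that follows. Library totals ran from 642384 to 2360434 counts in mESC and from 342022 to 682113 in NPC, and microRNA genes took 0.271% of the counts in mESC and 0.106% in NPC. The 2 libraries of a group are named biological samples in the series design, and nothing says that they came from separate cultures, so p-values measure the spread between these libraries. Levels are given as CPM, counts scaled to a total of 1000000, with totals adjusted by the trimmed mean of M-values (TMM). In bulk RNA, fewer cells of a type and less RNA per cell cannot be told apart. A count on a let-7 gene can come from any part of its annotated 85 to 103 bases. Let-7 levels here therefore do not separate the mature RNA from fragments of its precursors.

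MicroRNA marker lists set Q20 NPC apart from the other NPC. A list of ES cell microRNAs, 10 of which were in the table, summed to 1058 to 3445 counts in mESC libraries and 0 or 1 in the 10 NPC libraries of the other genotypes. Q20 NPC held 190 and 214 counts of this list, so these 2 libraries stood apart from the other NPC. A list of 16 neural microRNAs summed to 1 to 8 counts in mESC, 90 to 302 in the other NPC, and 58 and 63 in Q20 NPC. Neural progenitor mRNAs, 10 in the list, summed to 8 to 28 counts in mESC, 82 to 211 in the other NPC, and 83 and 86 in Q20 NPC. In CPM these mRNAs summed to 8.59 to 20.1 in mESC, 196.7 to 369.7 in the other NPC, and 130.0 and 149.1 in Q20 NPC. A list of 8 ES cell mRNAs summed to 41 to 132 counts in mESC, 2 to 7 in the other NPC, and 8 and 8 in Q20 NPC. In CPM it summed to 29.4 to 74.0 in mESC, 4.57 to 14.1 in the other NPC, and 12.5 and 13.9 in Q20 NPC. Scaled in this way, Q20 lay within the range of the other NPC. Most of these NPC counts were Sox2, with 45 in the other NPC and 12 in Q20. Pou5f1 and Utf1 had 2 counts each in Q20 and 0 in the other NPC, while Esrrb had 0 and 2. The comparisons of let-7 members between NPC and mESC are also given without Q20.

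Counts on let-7 genes were scarce in mESC and present in every NPC library. The 4 countable members summed to 228 counts in NPC and 14 in mESC, although the mESC libraries were the deeper ones. Let-7 made up 3.91% of all microRNA counts in NPC and 0.0265% in mESC. The summed level was 41.1 ± 27.4 CPM in NPC against 0.997 ± 0.789 CPM for mESC (SD, n = 12 each), a ratio of 41.2. Its NPC libraries had a lowest, median and highest value of 6.93, 36.4 and 101.3 CPM, and no mESC library was above 2.56 CPM. Without Q20 the NPC level was 47.2 ± 25.8 CPM (SD, n = 10). With Mirlet7f-2 and Mir98, which share the seed but are not among the 10 members, added to the sum, the ratio was 19.5. Those 2 genes had 5 and 4 counts in NPC and 7 and 9 in mESC.

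Among the 4 countable members, Mirlet7c-1 held most of the NPC counts, and its share of the whole family could not be read. It had 175 counts, all in NPC, which was 76.8% of the let-7 counts there, and 9 microRNA genes had more counts in NPC. In NPC its counts per library had a lowest, median and highest value of 2, 13 and 26, and all 12 mESC libraries had 0. The groups did not overlap, at 31.4 ± 20.4 CPM in NPC (SD, n = 12; 3.47, 26.8 and 64.7 CPM for the lowest, median and highest library). A count of 0 allowed up to 3 counts in each mESC library, or 1.36 to 4.23 CPM, which is a limit for counting error only. Against the mean of these limits, Mirlet7c-1 was at least 13.1-fold higher in NPC, and at least 15.2-fold higher without Q20. Within single genotypes, the mean of the 2 NPC libraries was at least 17.9-fold higher for KO, 12.4-fold for WT, 17.0-fold for Q50, 6.31-fold for Q92 and 22.9-fold for Q111. From the lower of the 2 NPC libraries the bounds were 9.98-fold, 7.83-fold, 10.8-fold, 5.85-fold and 17.0-fold in the same order. For Q20 the mean gave 3.12-fold, but its lower library held 2 counts, under the limit of 3, so no bound is given from it. In edgeR's quasi-likelihood test over all 24 libraries, Mirlet7c-1 was the 1 member that passed the filter on low counts. With 0 counts in mESC it passed through its NPC counts alone, so the direction of the call was fixed in advance. It was called higher in NPC (edgeR adjusted p 8.38e-10). In that comparison 58.4% of the 904 genes tested were called, 30.4% higher and 28% lower, so a call in itself did not set the gene apart. It stayed called in the wild-type libraries alone (edgeR adjusted p 0.00086), where it also had counts in NPC only.

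Mirlet7e, the member beside Mir99b, was also higher in NPC, at a lower level. It had 47 counts in NPC and 9 in mESC. The NPC libraries ran from 1.50 to 31.0 CPM with a median of 7.33. The mESC libraries ran from 0 to 1.41 CPM with a median of 0.590. The lowest NPC value, in WT replicate 1, and the highest mESC value, in Q50 replicate 2, each rested on a single count. Raw counts of the groups overlapped, at 1 to 11 in NPC and 0 to 2 in mESC, so the gap in CPM does not separate them. Means were 8.60 ± 7.64 CPM for NPC against 0.603 ± 0.528 CPM for mESC (SD, n = 12 each). Mirlet7e did not pass the filter, and without a filter edgeR gave 2.96 ± 0.51 on the log2 scale (SE; adjusted p 3.04e-07), where 10.4% of 19429 genes were called, 2.39% higher and 8.03% lower, and the median gene changed by -0.35. Leaving out the Q20 group, also without a filter, gave 3.01 ± 0.55 (edgeR, adjusted p 2.59e-06).

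Mirlet7g and Mirlet7a-2 were near the limit of detection. Mirlet7g had 4 counts in NPC and 5 in mESC, with at most 1 in any library, and its host gene Wdr82 ran from 1.57 to 12.1 CPM in NPC and from 2.26 to 8.36 CPM in mESC. In an additive edgeR model of genotype and cell type without a filter, the log2 change of Mirlet7g was 0.34 ± 0.82 (SE, adjusted p 0.801), where that model called 12.7% of 19429 genes. Mirlet7a-2 had 1 count in each Q50 NPC library and 0 elsewhere, with a log2 change of 1.47 ± 1.17 in the same model (edgeR, adjusted p 0.565). A difference between the cell types was not detectable at this depth for either gene. Without Q20 the changes were 0.36 ± 0.84 and 1.66 ± 1.31 (SE, edgeR adjusted p 0.793 and 0.576), where 11.3% of 18668 genes were called. Per 100 bases of gene, the NPC levels ordered the members as Mirlet7c-1 at 33.4 ± 21.7 CPM, Mirlet7e at 9.25 ± 8.22, Mirlet7g at 0.776 ± 1.21 and Mirlet7a-2 at 0.445 ± 1.05 (SD, n = 12).

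**Figure D2:**
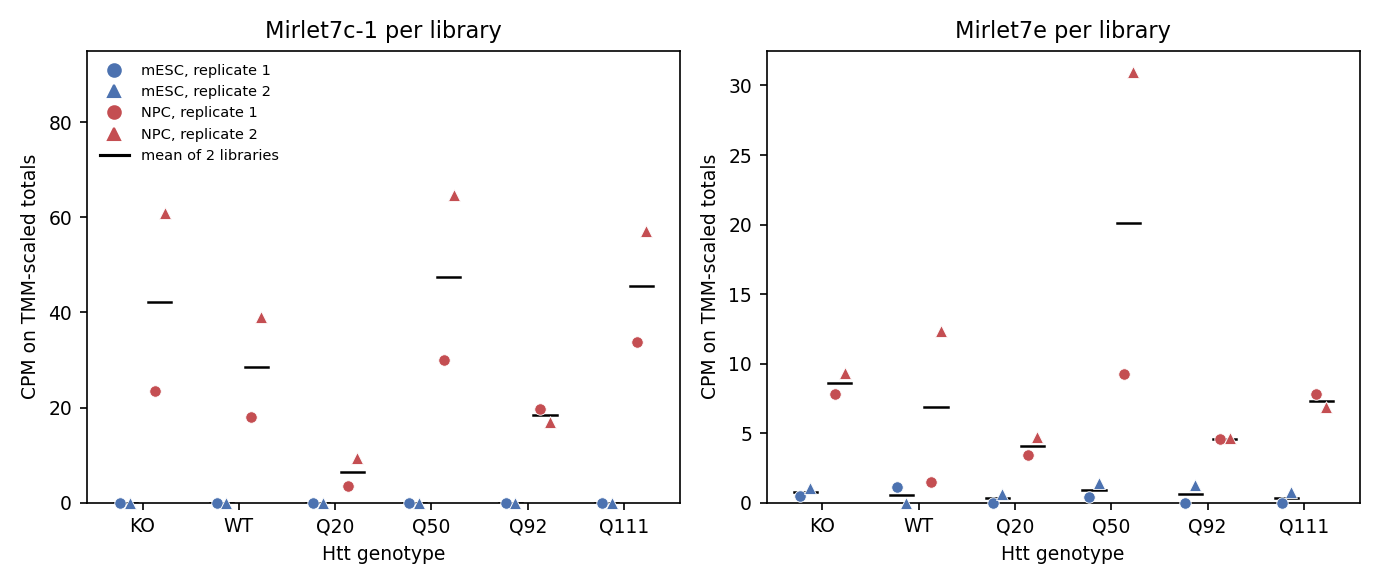
CPM of Mirlet7c-1 (left) and Mirlet7e (right) in each library by Htt genotype; circles are replicate 1, triangles replicate 2, blue mESC, red NPC, and bars the mean of 2 libraries. Mirlet7c-1 was at 0 in all 12 mESC libraries and at 3.47 to 64.7 CPM in NPC, lowest in Q20; Mirlet7e ran from 0 to 1.41 CPM in mESC and from 1.50 to 31.0 CPM in NPC.

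The cluster neighbours Mir99b and Mir99a were also higher in NPC. Mir99b, which precedes Mirlet7e, averaged 53.0 ± 25.8 CPM in NPC against 14.1 ± 9.71 CPM in mESC (SD, n = 12 each), and the ranges of 24.3 to 92.4 and 5.36 to 40.9 CPM overlapped. It was called higher, by 1.95 ± 0.27 on the log2 scale (SE; adjusted p 1.96e-06 in edgeR). Without Q20 its NPC mean was 57.5 ± 25.8 CPM (SD, n = 10), and the additive model without a filter gave 1.37 ± 0.31 (SE, edgeR adjusted p 0.000272). That fit differs from the first in model and filter as well as in Q20, so these log2 changes are not directly comparable. In mESC Mir99b had 211 counts in all, while Mirlet7e, 94 bases away, had 9. Mir99a, the neighbour of Mirlet7c-1, had 22 counts in NPC and 0 in mESC, and the host gene Mir99ahg had 8 and 0. Spaca6, the host gene of Mirlet7e, had 2 counts in NPC and 12 in mESC. Per 100 bases in NPC, Mirlet7c-1 at 33.4 CPM was above Mir99a at 5.97 ± 4.13, whereas Mirlet7e at 9.25 CPM was below Mir99b at 75.7 ± 36.9 (SD, n = 12). The remaining neighbours Mir100 and Mir125b-2 had 4 and 2 counts in all. Mir125a and Mir125b-1 had 0. Both overlap a same-strand exon of another gene, as does Mir125b-2, which had counts. The 6 members at 0 lie wholly inside such an exon, which is not given here for these neighbours. Of the 9 listed partner and host genes in the table, which do not include Spaca6, 2 passed the filter. Of these, Mir99b was called and Huwe1 was not, at -0.55 ± 0.27 (SE, edgeR adjusted p 0.0847).

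Among the NPC genotypes, Q20 had the lowest let-7 level. Mirlet7c-1 counts in replicates 1 and 2 were 2 and 6 in Q20, 13 and 11 in Q92, 12 and 19 in WT, 12 and 26 in KO, 13 and 25 in Q111, and 13 and 23 in Q50. Both Q20 libraries lay below all others, at 3.47 and 9.40 CPM, while the remaining 10 libraries ran from 17.0 to 64.7 CPM. Group means rose from 6.43 ± 4.20 CPM in Q20 through 18.4 ± 1.92 in Q92, 28.5 ± 14.9 in WT, 42.1 ± 26.4 in KO and 45.5 ± 16.5 in Q111 to 47.4 ± 24.5 in Q50 (SD, n = 2 each). Neighbours in this order overlapped from Q92 upwards. The CPM of replicate 2 was above that of replicate 1 in 5 of the 6 genotypes.

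In the fit of all 12 NPC libraries, Mirlet7c-1 was called in 2 genotype comparisons, both against Q20. Each edgeR fit used the 12 NPC libraries and 441 genes. Q50 exceeded Q20 by 2.54 ± 0.64 on the log2 scale (SE, adjusted p 0.0119, edgeR), where 17.7% of the genes were called. Q111 exceeded Q20 by 2.68 ± 0.64 (SE, edgeR adjusted p 0.00844), with 14.3% of genes called. Both calls were lost when single libraries were left out, while the sign stayed. Without Q20 replicate 1 the difference was 2.09 for Q50 and 2.39 for Q111 (edgeR adjusted p 0.139 and 0.0861). Without the second replicate of the repeat line itself it was 1.96 for Q50 and 2.48 for Q111 (edgeR adjusted p 0.124 and 0.105). The difference of Q92 from Q20 was 1.56 ± 0.69 (edgeR adjusted p 0.128, 15.9% of genes called). It was called when those 4 libraries were fitted alone (1.69, edgeR adjusted p 0.00715). Adding the replicate number as a term to the fit of 12 libraries also gave a call. These 3 comparisons share the Q20 libraries.

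Against WT, Mirlet7c-1 was not called for any genotype in the fit of all 12 NPC libraries. With the replicate number added as a term, Q20 was called (-1.90, edgeR adjusted p 0.019). Without that term Q20 gave -1.85 ± 0.66 (SE, edgeR adjusted p 0.0749), where 12.7% of genes were called. This value lay close to the threshold and was called without replicate 1 of WT (-2.45, edgeR adjusted p 0.0186) and without either library of KO or of Q50 (adjusted p 0.0308 to 0.0446). The log2 change was 0.65 ± 0.51 in KO (adjusted p 0.698, edgeR; 1.36% of genes called) and 0.70 ± 0.52 in Q50 (adjusted p 0.572, edgeR; 6.58% called). It was -0.28 ± 0.55 in Q92 (adjusted p 0.734, edgeR; 18.8% called) and 0.84 ± 0.51 in Q111 (adjusted p 0.333, edgeR; 10.9% called). Of these 5 comparisons, which share the WT libraries, Q20 alone had an unadjusted p under 0.05, and DESeq2's Wald test also called the gene in 0 of them. The SE of these 5 changes was 0.51 to 0.66 with 2 libraries a group, and a p that misses the threshold does not show equal levels. Along the repeat number of the 4 knock-in lines, Mirlet7c-1 had a slope of 0.17 ± 0.09 on the log2 scale for each 10 repeats and was not called (SE; adjusted p 0.402 in edgeR, with 6.45% of 403 genes called). Without the Q20 group the slope was -0.0085 (edgeR adjusted p 0.97), and without Q50 replicate 2 it was 0.25 and called (edgeR adjusted p 0.042).

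**Figure D3:**
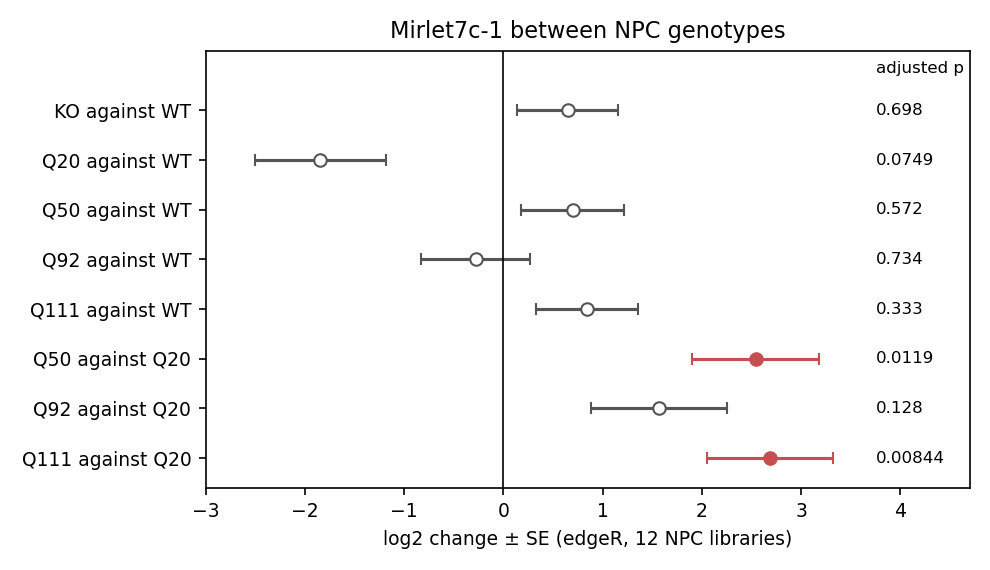
Log2 change of Mirlet7c-1 between NPC genotypes in the edgeR fit of 12 NPC libraries, with an SE derived from the F statistic. The adjusted p is on the right. Filled red points are called at 0.05 and open points are not. The calls are Q50 against Q20 at 2.54 and Q111 against Q20 at 2.68, and KO, Q50, Q92 and Q111 lie within 0.84 of WT.

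Mirlet7e was not called between NPC genotypes. Its NPC counts were 1 to 6 per library except for Q50 replicate 2 with 11, and group means ran from 4.08 ± 0.873 CPM in Q20 to 20.1 ± 15.3 CPM in Q50 (SD, n = 2 each). Without a filter, Q50 against Q20 gave 1.86 ± 0.82 (SE, unadjusted p 0.0233, edgeR adjusted p 1), and none of the other NPC comparisons had an unadjusted p under 0.05 for this gene.

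In mESC no member passed the filter in any genotype comparison. Without a filter, Mirlet7e and Mirlet7g could be tested in the 8 comparisons and the slope, and edgeR called 0 members, with 0 at an unadjusted p under 0.05. Of the 17642 genes in these fits, 0.0283% were called in Q20 against WT, 0.0113% each in Q50 and Q92 against Q20, 0.00567% each in Q50 against WT and Q111 against Q20, and 0% in the other 3. Along the slope 0.0123% of 16201 were called. DESeq2's Wald test was run with the filter and so had no member to test. Each mESC library held 0 to 2 let-7 counts, with 1 count in Q20, 2 each in Q50 and Q111, and 3 each in KO, WT and Q92. Markers that define feeder fibroblasts were mostly at 0 in these libraries. A list of 13 feeder microRNAs summed to 0 to 18 counts per mESC library with 8 of its members at 0, among them Mir199a-1. Members with counts in mESC were Mir196a-1 (26), Mir143 (14), Mir145a (12), Mir10b (1) and Mir199b (1), against 1, 3, 2, 2 and 0 in NPC. Whether the members at 0 lie inside a same-strand exon was not tested, so these zeros do not give a level. Of 12 feeder mRNAs, 10 were at 0 in all mESC libraries, among them the collagens Col1a1, Col1a2 and Col3a1. Fn1, for fibronectin, with 295 counts and Thy1 with 1 made up the list's sum of 6 to 52 counts per mESC library.

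Lin28a and Lin28b were counted in mESC and, among the NPC, in Q20. Lin28a had 2 to 18 counts in each mESC library (5.00 ± 2.30 CPM, SD, n = 12) and 0 in the 10 NPC libraries outside Q20. In Q20 NPC it had 5 and 6 counts, or 9.03 ± 0.518 CPM (SD, n = 2), which lies within the mESC range of 2.56 to 9.98 CPM. Lin28b had 59 counts in mESC, 2 and 2 in Q20 NPC, and 0 in the other NPC. Without a filter, edgeR called both lower in NPC than in mESC (adjusted p 2.61e-08 for Lin28a and 3.27e-05 for Lin28b). Between Q20 and WT NPC neither was called (edgeR adjusted p 0.55 and 1, unadjusted p 0.002 for Lin28a and 0.101 for Lin28b). Q20 NPC libraries thus held the lowest let-7 of the NPC, though above every mESC library, beside Lin28 and ES cell microRNA counts. As a share of microRNA counts, let-7 was 0.692% and 1.34% in Q20 NPC and 3.33% to 6.33% in the other NPC. Leaving the ES cell list out of the denominator gave 1.03% and 1.97% in Q20 against 3.33% to 6.35%. Per 100 counts of the neural microRNA list, let-7 had 6.90 and 14.3 counts in Q20 NPC and 7.89 to 23.1 in the others, which overlapped. The part of the ES cell RNAs in the low let-7 of Q20 NPC was not tested.

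**Figure D4:**
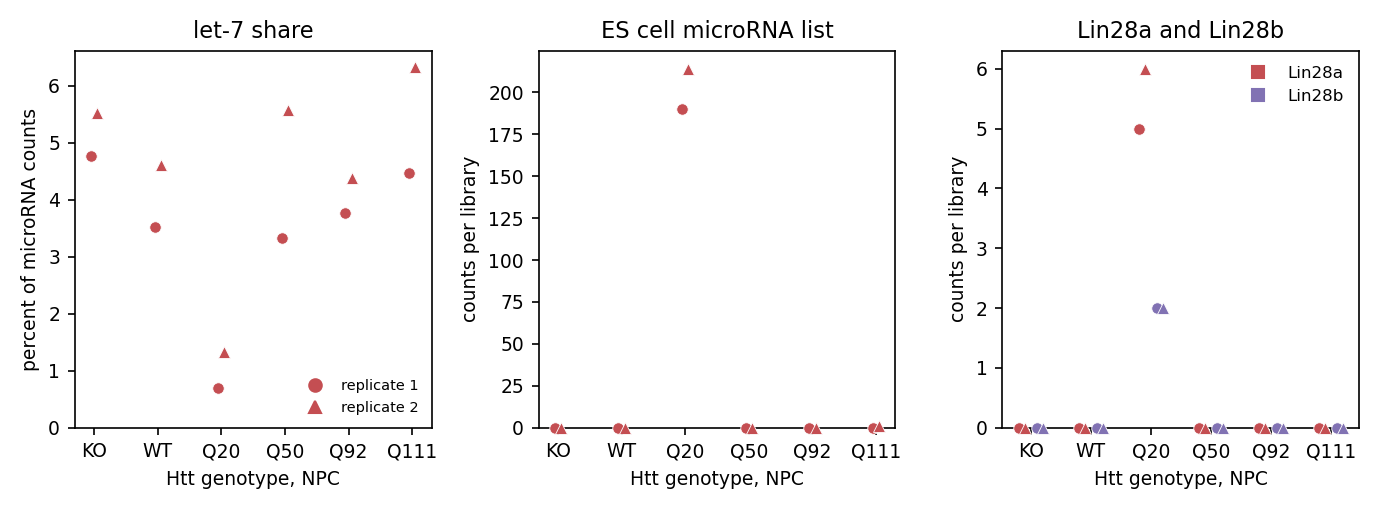
NPC libraries by Htt genotype: let-7 as percent of microRNA counts (left), summed counts of the ES cell microRNA list (middle), and counts of Lin28a (red) and Lin28b (purple, right); circles are replicate 1 and triangles replicate 2. The 2 Q20 libraries have the lowest let-7 shares (0.692% and 1.34%), 190 and 214 ES cell microRNA counts, and the only Lin28a and Lin28b counts of the NPC libraries.

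Other genes of let-7 maturation were low in these small RNA libraries, where a count on a protein-coding gene is a fragment of its message. The list held 22 symbols, including alternative names for some genes, and 19 were in the count table. Of these, 3 passed the filter. In NPC 1 was called lower and 0 higher, where 28% of all genes were called lower and 30.4% higher. The gene called was Trim71, a stem cell RNA-binding protein and itself a let-7 target, at 17.7 ± 5.91 CPM in mESC against 3.18 ± 4.29 CPM for NPC (SD, n = 12 each), a difference of -3.40 ± 0.41 on the log2 scale (SE; adjusted p 2.81e-07 in edgeR). Of its 23 NPC counts, 14 came from Q20. The Argonaute genes Ago1 and Ago2, whose proteins hold the mature microRNA, were at -0.69 ± 0.51 and 0.12 ± 0.32 (SE, edgeR adjusted p 0.255 and 0.759). Without a filter 18 were tested, of which 7 were called lower and 0 higher, where 8.03% of all genes were called lower and 2.39% higher. These were Lin28a, Lin28b, Trim71, Ago1, the processing enzyme Drosha, the nuclear export factor Xpo5 and the uridylating enzyme Tut4. The list's median log2 change was -1.19, against -0.35 over all 19429 genes. The additive model called 7 of 18 lower with Q20 and 6 of 18 without it, and 0 higher in both, against 8.53% of all genes called lower with Q20 and 7.67% without it.

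Known let-7 targets did not move in a single direction. Of the 30 listed, 6 passed the filter, 4 called higher in NPC and 2 lower, with a median log2 change of 1.76 against -0.02 over the 904 genes tested, of which 30.4% were called higher and 28% lower. The D-type cyclins that drive entry into the cell cycle were higher, Ccnd2 by 5.31 ± 0.39 (SE, edgeR adjusted p 1.02e-10), from 1.02 ± 1.07 to 38.8 ± 21.4 CPM, and Ccnd1 by 2.98 ± 0.37 (edgeR adjusted p 2.75e-07), from 3.35 ± 2.23 to 30.7 ± 20.1 CPM (SD, n = 12 each). Irs2 and Igf1r, of insulin and IGF signalling, were higher by 2.09 ± 0.52 and 1.43 ± 0.41 (SE, edgeR adjusted p 0.00142 and 0.00462). Lower were Trim71 and Igf2bp1, an mRNA-binding protein of fetal cells, which had 353 counts in mESC and 28 in NPC, 26 of them in Q20 NPC. Its level in Q20 NPC, 21.3 ± 3.14 CPM (SD, n = 2), was close to its mESC mean of 21.2 ± 6.15 CPM (SD, n = 12), and edgeR called it higher in Q20 than in WT NPC (adjusted p 0.0117). Without a filter, 29 targets were tested, 4 called higher (Ccnd1, Ccnd2, Irs2 and Myc) and 8 lower, where 2.39% of all genes were called higher and 8.03% lower. The additive model also called 4 higher and 8 lower, both with Q20 and without it. Of all genes it called 4.12% higher and 8.53% lower with Q20, and 3.58% and 7.67% without it. Among the 8 were Igf2bp1, Trim71, Lin28a, Lin28b, Mycn, Sall4 and Arid3b. Mycn had 100 counts in mESC and 0 in NPC, Arid3b had 20 and 0, and Sall4 had 107 and 4, all 4 in Q20. The unfiltered median of the list was -0.02 against -0.35 for all genes. Hmga2, a chromatin protein and a well-known let-7 target, had 7 counts in mESC and 10 in NPC.

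Genes with a level most like the let-7 sum were found by correlating log2(CPM + 1). Over the 24 libraries and 482 genes with a mean of at least 10 CPM, the highest Pearson coefficients were those of the neural microRNA genes Mir181a-1 (0.97) and Mir9-1 (0.97), the noncoding RNA Gm3764 (0.96), Ccnd2 (0.96) and Mir181a-2 (0.96). The points fall into 2 cell types and share library scaling, so these values describe the mESC to NPC step. Over the 12 NPC libraries and 493 genes, the highest were Mir181a-1 (0.92), Mir877 (0.89) and Mir9-1 (0.87). Between the cell types Mir877 went the other way from let-7, at 182.1 ± 84.4 CPM in mESC against 50.2 ± 30.5 in NPC (SD). In Q20 NPC, Mir181a-1 stood at 50.4 CPM against 85.1 to 613.4 in the other NPC, Mir9-1 at 3.22 against 9.28 to 45.0, and Mir877 at 16.1 against 19.5 to 96.1, as means of 2 Q20 libraries. Mir9-3, of the neural microRNA list but not among these genes, averaged 26.3 CPM in Q20 NPC and 21.15 CPM in the other NPC. Without the Q20 NPC libraries the coefficients over 10 NPC libraries were 0.91 for Mir181a-1, 0.77 for Mir877 and 0.64 for Mir9-1, and over 22 libraries the 5 genes named first stayed between 0.96 and 0.98. Compared with WT NPC, edgeR called Mir181a-1 (-1.53 ± 0.44, adjusted p 0.0295) and Mir9-1 (-2.12 ± 0.66, adjusted p 0.0418) lower in Q20, where Mirlet7c-1 itself was at -1.85 ± 0.66 and not called.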

How the data were processed

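Per the labels' protocols, total RNA was extracted with TRIzol, treated with DNase and sequenced as single-end reads of 50 bases. The authors deposited raw counts per gene. The submitters' processing notes name CASAVA 1.8, STAR, HTSeq and GRCm38.p6, and settings for strand and for reads matching several places or genes are not given in the sources used here. Identifiers were matched to GENCODE M21 symbols for 55154 of 55335 genes, and the 181 unmatched held 57 counts. All table columns matched a sample (0 did not). Libraries were scaled by TMM and tested with edgeR 4.0.16 (quasi-likelihood, R 4.3.3), after filterByExpr with a minimum count of 10 and total of 15, with Benjamini-Hochberg adjustment over all genes tested and calls at 0.05. NPC against mESC contrasted 6 group means each, and genotypes were compared within a cell type. The edgeR test reports no SE. Each SE given with an edgeR change is the absolute log2 change divided by the square root of the test's F statistic. Alternatives were DESeq2 1.42.0, other scalings, no filter, an additive model, a replicate block and libraries left out. The fits were tested on simulated data, where false calls in NPC against mESC exceeded the nominal rate. The members and lists were chosen with earlier results of these data known. All 10 members were named where they had counts, listed pathway genes where called (others named were chosen after their values were seen), and the 5 (24 libraries) or 3 (NPC) genes most correlated with the let-7 sum. The values of 1 listed target are not reported here.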

Additional observations from a re-analysis of the deposited data

How the results depend on the processing

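Limits were these: 242 let-7 counts were spread over 24 libraries, 6 members could not be read, and groups held 2 libraries. In NPC against mESC, 1 member was called, and 2 were (Mirlet7c-1 and Mirlet7e) in all 3 fits without a filter: the group means, the additive model, and the additive model without Q20, the last chosen after seeing the data. Leaving out a library makes a group of 1 library, which lowers the filter's minimum so that Mirlet7e is also tested. This rested on Q50 NPC replicate 2, with 11 counts. Without that library Mirlet7e did not pass the main filter. The log2 change of Mirlet7e was 2.90 to 3.85 under 7 other settings and 2.68 to 3.47 leaving out each library (edgeR adjusted p at most 0.00143); except for the planned fits without a filter, these were chosen after seeing the data. The ratio of the let-7 sums was 41.2, 144.4 relative to microRNA counts, 46.9 on library totals, and 35.7 to 48.1 leaving out each library. Leaving out each NPC library gave 0 to 1 members called for Q20 against WT, Q50 against Q20, Q111 against Q20 and the slope. The slope was called without Q50 replicate 2 (0.25, edgeR adjusted p 0.042). The replicate block, with the replicate number as a term, called Mirlet7c-1, 1 member, in Q20 against WT (-1.90, edgeR adjusted p 0.019) and in Q92 against Q20 (1.64, adjusted p 0.0422), and changed no other call of a member. The 4 libraries alone also called 1 member in Q92 against Q20 (1.69, edgeR adjusted p 0.00715). Same-numbered libraries were not taken as pairs in the main fits. Their deviations correlated over 0.1 in 4 of 15 pairs of NPC groups (highest 0.414) and 10 of 15 pairs of mESC groups (highest 0.494). These values do not show that same-numbered libraries were independent. The sign of Mirlet7c-1 reversed in KO against WT without KO replicate 2 (-0.10), Q50 against WT without Q50 replicate 2 (-0.014), Q92 against WT without WT replicate 2 (0.019) and the slope without the Q20 group (-0.0085). Leaving out a WT library moved KO to 1.29, Q50 to 1.25 (both without replicate 2) and Q92 to -1.11 (without replicate 1) against WT. For these changes the cause was not tested.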
